A study of Mus musculus with 8 samples.

Results

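The Cyp3a genes of the mouse encode cytochrome P450 monooxygenases of liver and gut, and 7 of them were followed here in livers with and without the corepressor NCOR: Cyp3a11, Cyp3a13, Cyp3a16, Cyp3a25, Cyp3a41a, Cyp3a44 and Cyp3a59. They were chosen by symbol. A row of the array table counted for a gene only when it was annotated to that gene alone, and 6 of the 7 had such a row, 1 each, among 22180 genes. Cyp3a41a appeared only in 2 rows that also carry Cyp3a41b, Cyp3a11 and Cyp3a44, and these shared rows are given apart. RefSeq lists 9 protein-coding Cyp3a genes. Of the other two, Cyp3a57 has its own row and is shown for comparison, and Cyp3a41b is in the shared rows only.

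Each of the 8 arrays, of the Affymetrix Mouse Gene 2.0 type, held liver RNA of 3-month-old mice kept on normal chow. The 4 knockout livers (NCOR_KO) came from NCOR floxed mice given adeno-associated virus (AAV) with Cre recombinase by vein, which cuts out the floxed part of the gene. The 4 control livers (WT) received AAV with GFP. The sample labels name the controls wild-type, yet the design text gives both viruses to floxed animals, which leaves the control genotype unsettled. Livers were frozen 2 weeks after injection, at 5 pm (ZT10). No label gives the promoter that drives Cre, the cells it reached or the sex of the mice. Virus cargo differs between the groups and genotype may differ with it, so an effect of Cre and one of NCOR loss cannot be told apart. Replicates are called biological without any animal being named. Every p-value rests on the spread among these 8 samples, and no label states that each is a separate animal.

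CYP3A enzymes sit in the endoplasmic reticulum, take electrons from cytochrome P450 reductase and oxidise many drugs, steroids and bile acids. Their genes are the textbook targets of the pregnane X receptor PXR, which pairs with RXR on repeats of the hexamer AGGTCA, and several of them are also set by the sex-specific pattern of growth hormone. NCOR is a corepressor that nuclear receptors without an activating ligand hold on their target genes, together with the histone deacetylase HDAC3.

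Median intensity was 41 to 44 over the 8 arrays, and the number of arrays limits the precision of every value. On the second principal component, WT replicate 2 (-20.5) and NCOR_KO replicate 1 (-12.2) stood apart from the other arrays (-0.30 to 10.7). The changes of Cyp3a59, Cyp3a25 and Cyp3a44 are given with and without them. Sizes of differences between Cyp3a genes are given for all 8 arrays only. The targeted gene was not analysed here, so the labels were not checked against it. The hepatocyte marker albumin (Alb) was bright in every library, at a log2 intensity of 13.47 to 13.56. Mean levels of the 13 measured hepatocyte markers ran from 7.53 to 13.52, where the median gene lay at 5.88. The Y-linked gene Uty lay between 8.99 and 9.24 and Xist between 4.01 and 4.56 in all 8 arrays. High Uty with low Xist is the pattern of male tissue, although no label gives the sex.

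The sequences before the start sites are shown first, because they show which genes of the family are nearly alike before their starts. RefSeq promoter windows on GRCm38.p6, 250 bases before to 50 after a gene's start, were found for all 9 protein-coding genes. Capitals mark AGGTCA on either strand, and, where it runs on, the 9-letter motif CAAAGGTCA that contains it. The windows below are those of Cyp3a59 (chr5:146079008-146079307, plus strand), Cyp3a25 (chr5:146009569-146009868, minus strand), Cyp3a57 (chr5:145345019-145345318, plus strand), Cyp3a44 (chr5:145805825-145806124, minus strand) and Cyp3a11 (chr5:145879805-145880104, minus strand). The first 2 are shown for the genes with the 2 largest estimated changes, Cyp3a57 for its likeness to them, and the last 2 for the other branch of the family.
Cyp3a59: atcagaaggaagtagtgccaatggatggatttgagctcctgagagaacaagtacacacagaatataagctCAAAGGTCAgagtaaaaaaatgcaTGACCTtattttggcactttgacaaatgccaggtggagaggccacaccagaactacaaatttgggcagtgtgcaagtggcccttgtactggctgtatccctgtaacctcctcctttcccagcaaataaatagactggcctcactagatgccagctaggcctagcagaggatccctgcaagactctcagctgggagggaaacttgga
Cyp3a25: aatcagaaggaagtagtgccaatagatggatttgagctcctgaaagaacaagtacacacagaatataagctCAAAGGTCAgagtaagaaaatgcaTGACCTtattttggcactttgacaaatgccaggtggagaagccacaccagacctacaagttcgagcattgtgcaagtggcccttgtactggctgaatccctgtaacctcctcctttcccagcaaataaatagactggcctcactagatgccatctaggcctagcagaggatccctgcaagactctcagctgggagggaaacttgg
Cyp3a57: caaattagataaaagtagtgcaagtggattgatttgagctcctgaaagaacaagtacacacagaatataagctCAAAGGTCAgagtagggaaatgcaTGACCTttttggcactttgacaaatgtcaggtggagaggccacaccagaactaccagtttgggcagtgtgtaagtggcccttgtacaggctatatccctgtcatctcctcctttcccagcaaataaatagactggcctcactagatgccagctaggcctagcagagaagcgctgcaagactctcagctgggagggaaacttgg
Cyp3a44: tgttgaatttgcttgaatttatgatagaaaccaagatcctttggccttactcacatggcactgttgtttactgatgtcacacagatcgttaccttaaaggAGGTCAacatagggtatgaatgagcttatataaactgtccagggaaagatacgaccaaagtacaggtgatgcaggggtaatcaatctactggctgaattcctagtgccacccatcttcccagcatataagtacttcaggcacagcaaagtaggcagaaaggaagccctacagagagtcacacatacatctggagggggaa
Cyp3a11: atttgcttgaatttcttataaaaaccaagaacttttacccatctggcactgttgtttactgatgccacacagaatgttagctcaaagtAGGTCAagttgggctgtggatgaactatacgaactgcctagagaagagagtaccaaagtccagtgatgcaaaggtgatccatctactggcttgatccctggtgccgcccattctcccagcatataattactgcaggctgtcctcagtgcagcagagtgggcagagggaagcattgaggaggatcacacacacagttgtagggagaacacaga

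The windows of Cyp3a25 and Cyp3a59 were identical in 96.3% of 299 aligned columns, and Cyp3a57 shared 90.3% with Cyp3a25 and 92.0% with Cyp3a59. Cyp3a44, Cyp3a41a, Cyp3a41b and Cyp3a16 formed another group, with 93.0% to 98.3% identity between members. Cyp3a11 stood nearer to that group (71.3% to 76.3%) than to Cyp3a25 (53.2%). Cyp3a13, which lies apart from the cluster on chromosome 5, was at 51.2% to 55.4% to every other window, a range that gapped alignment gave between all distant pairs.

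AGGTCA, searched on both strands, occurred in 5 of the 9 windows and in 16.3% of 32851 promoter windows of the same length. It was found in Cyp3a11, Cyp3a25, Cyp3a44, Cyp3a57 and Cyp3a59, and not in the windows of Cyp3a13, Cyp3a16, Cyp3a41a and Cyp3a41b. In Cyp3a25, Cyp3a57 and Cyp3a59 it occurred 2 times, on opposite strands, beginning 176 and 155 bases before the start in Cyp3a25 and 177 and 156 bases before it in Cyp3a59. The copy on the gene's own strand in those 3 genes lies within CAAAGGTCA, a motif that only these 3 of the 9 windows held and that 0.478% of all windows held. AGTTCA, another nuclear receptor hexamer, was in the windows of Cyp3a11, Cyp3a41a and Cyp3a41b and in 14.0% of all windows. An everted repeat, TGAACT and AGGTCA with 6 bases between, was in 0 of the 32851 windows. Direct repeats of AGGTCA with 1 or 4 bases between, whose hits also count as AGGTCA, were in 0 of the 9. Direct repeats with other spacings, direct repeats of AGTTCA and inexact copies were not searched. The absence of receptor repeats from these windows therefore cannot be read from these counts. CAAAGGTCA was chosen after these sequences had been seen. Since many of the 9 windows are nearly identical, their hits are not independent. The shares over all windows are therefore background and no test of the family. A match is a string of letters, not a shown binding site, and Cyp3a57 carries these strings as often as Cyp3a25 and Cyp3a59 do.

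**Figure D1:**
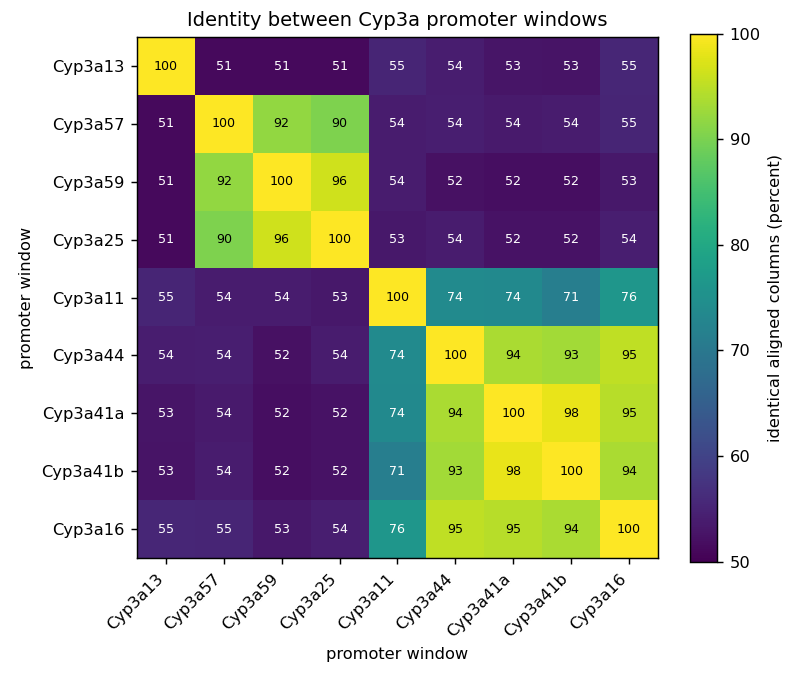
Percent of aligned columns that are identical between each pair of the 9 Cyp3a promoter windows (both axes list the windows; colour and number give the percent). Cyp3a57, Cyp3a59 and Cyp3a25 form one block (90.3% to 96.3%) and Cyp3a44, Cyp3a41a, Cyp3a41b and Cyp3a16 another (93.0% to 98.3%), with Cyp3a13 apart from both.

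Among the 6 Cyp3a genes with a row of their own, 3 were higher in the knockout livers and passed the test, 0 passed in the other direction, and 3 did not pass. Of all genes 0.816% rose and 0.834% fell, 1.65% together. The threshold was an adjusted p under 0.05 from limma's moderated test over all 22180 genes. Cyp3a59, Cyp3a25 and Cyp3a44 rose, and Cyp3a11, Cyp3a13 and Cyp3a16 did not pass. The median log2 change of the 6 was 0.45 against 0.01 over all genes. With the dim Cyp3a57, which also has its own row, the median of 7 genes was 0.18. In 4 of the 6, all knockout values lay above all control values, against 4.9% of all genes, and in 0 of the 6 did all lie below, against 5.49%; the groups were apart in either direction in 10.4% of all genes. In liver tissue, more cells of a type and more RNA per cell cannot be told apart.

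Cyp3a59 had the 7th largest log2 change of the 22180 genes and the 3rd smallest p. Its log2 intensity was 9.02, 8.62, 8.90 and 8.55 in WT replicates 1 to 4. It was 10.77, 10.91, 10.72 and 10.89 in NCOR_KO replicates 1 to 4. The lowest knockout value thus stood 1.70 above the highest control value, and the knockout livers lay within 0.19 of each other. The means were 8.78 ± 0.22 and 10.82 ± 0.09 (SD, n = 4), a 4.12-fold rise with a 95% interval of 3.51 to 4.84. The log2 change was 2.04 ± 0.10 (SE, limma adjusted p = 1.03e-05), and it passed in all 16 alternative fits, at 1.97 to 2.13. Without WT replicate 2 it was 1.99 and without NCOR_KO replicate 1 it was 2.06.

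Cyp3a25, which follows Cyp3a11 in the cluster and neighbours Cyp3a59 on the opposite strand, encodes a P450 found in liver and intestine. Its log2 intensity was 9.47, 10.58, 9.57 and 9.85 in WT replicates 1 to 4, so WT replicate 2 was far brighter than the other controls. NCOR_KO replicates 1 to 4 were at 11.23, 10.81, 11.12 and 10.68. The groups did not overlap, but only 0.10 parted the lowest knockout liver from WT replicate 2. The means, 9.87 ± 0.50 and 10.96 ± 0.26 (SD, n = 4), differed 2.13-fold (95% interval 1.52 to 2.99), a log2 change of 1.09 ± 0.22 (SE, limma adjusted p = 0.0386).

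The call for Cyp3a25 held in 7 of 16 alternative fits. Among those 7, the threshold of 0.1 could not lose a call made at 0.05. The mean of rows left Cyp3a25, which has 1 row, at the same estimate. Leaving out WT replicate 2 raised the change to 1.33 (adjusted p = 0.00320). The call was lost without WT replicate 1, 3 or 4, at 0.96, 0.99 and 1.09 (adjusted p = 0.0984, 0.0962 and 0.0972). It was also lost without NCOR_KO replicate 1, 2, 3 or 4, at 1.0, 1.14, 1.04 and 1.19 (adjusted p = 0.101, 0.0989, 0.0975 and 0.0548). With WT replicate 2 and NCOR_KO replicate 1 both left out, a choice made after seeing the data, the change was 1.24 (adjusted p = 0.00604). Those 2 arrays were the brightest of their groups for Cyp3a25 and not for Cyp3a59, although the promoter windows of the 2 genes, printed above, are nearly the same.

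Cyp3a44 encodes a P450 known from female mouse liver. It was at 6.90, 6.995, 6.86 and 6.75 in WT replicates 1 to 4. In NCOR_KO replicates 1 to 4 it was at 7.68, 7.70, 7.50 and 7.48. Each group spanned less than 0.25, and 0.48 parted them. The means of 6.88 ± 0.10 and 7.59 ± 0.12 (SD, n = 4) give a 1.64-fold rise (95% interval 1.46 to 1.84). The log2 change was 0.71 ± 0.08 (SE, limma adjusted p = 0.00200) and it passed in all 16 alternative fits, at 0.67 to 0.75. It was 0.75 without WT replicate 2 and 0.68 without NCOR_KO replicate 1.

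The 2 rows shared by Cyp3a41a, Cyp3a41b, Cyp3a11 and Cyp3a44 were bright, and neither passed the test. The first went from 11.71, 11.73, 11.57 and 11.49 in WT replicates 1 to 4 to 11.77, 11.85, 11.80 and 11.75 in the knockout livers. The second went from 11.62, 11.65, 11.53 and 11.45 to 11.75, 11.81, 11.78 and 11.77. In both rows every knockout value lay above every control value, as in 4.79% of all annotated rows. The log2 changes were 0.17 ± 0.07 and 0.21 ± 0.06 (SE, limma adjusted p = 0.275 and 0.137 over 25335 annotated rows), where 0.754% of rows rose and 1.54% passed in either direction. Both had an unadjusted p under 0.05, as did 15.4% of all annotated rows. Their 95% intervals were 0.02 to 0.32 and 0.08 to 0.35. A change in Cyp3a41a alone cannot be read from them, since the signal of 4 genes is summed, and near-identical paralogs may also add signal to the rows of single genes.

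Cyp3a11, the best-known PXR target of mouse liver, was at 11.47, 11.53, 11.49 and 11.21 in WT replicates 1 to 4. It was at 11.59, 11.70, 11.58 and 11.57 in NCOR_KO replicates 1 to 4. The groups did not overlap, with 0.03 between them. The log2 change was 0.18 ± 0.08 (SE, limma adjusted p = 0.289; 95% interval 0.01 to 0.36), and it missed the threshold in all 16 alternative fits. The upper end of that interval is a 1.28-fold rise.

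Cyp3a13, a P450 of liver and intestine, was at 11.55, 11.31, 11.28 and 11.02 in WT replicates 1 to 4. It was at 11.06, 11.19, 10.99 and 11.13 in the knockout livers, so the groups overlapped. Its log2 change was -0.20 ± 0.10 (SE, limma adjusted p = 0.386; 95% interval -0.42 to 0.03). This was the only bright member with an estimate below 0, from -0.29 to -0.11 over the alternative fits.

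Cyp3a16, a form of young and female liver, was among the dimmest genes on the array, at 3.38, 3.49, 3.47 and 3.14 in WT replicates 1 to 4 and 3.46, 3.28, 3.17 and 3.07 in NCOR_KO replicates 1 to 4. The median gene lay at 5.88. Its log2 change was -0.13 ± 0.10 (SE, limma adjusted p = 0.571; 95% interval -0.35 to 0.09). Cyp3a57 was as dim, at 3.34 ± 0.19 in WT and 3.34 ± 0.08 in knockout liver (SD, n = 4), with a change of -0.00312 ± 0.09 (SE, limma adjusted p = 0.991) whose sign turned in 5 of 15 alternative fits. At such levels a change in either gene may not be detectable on this array.

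**Figure D2:**
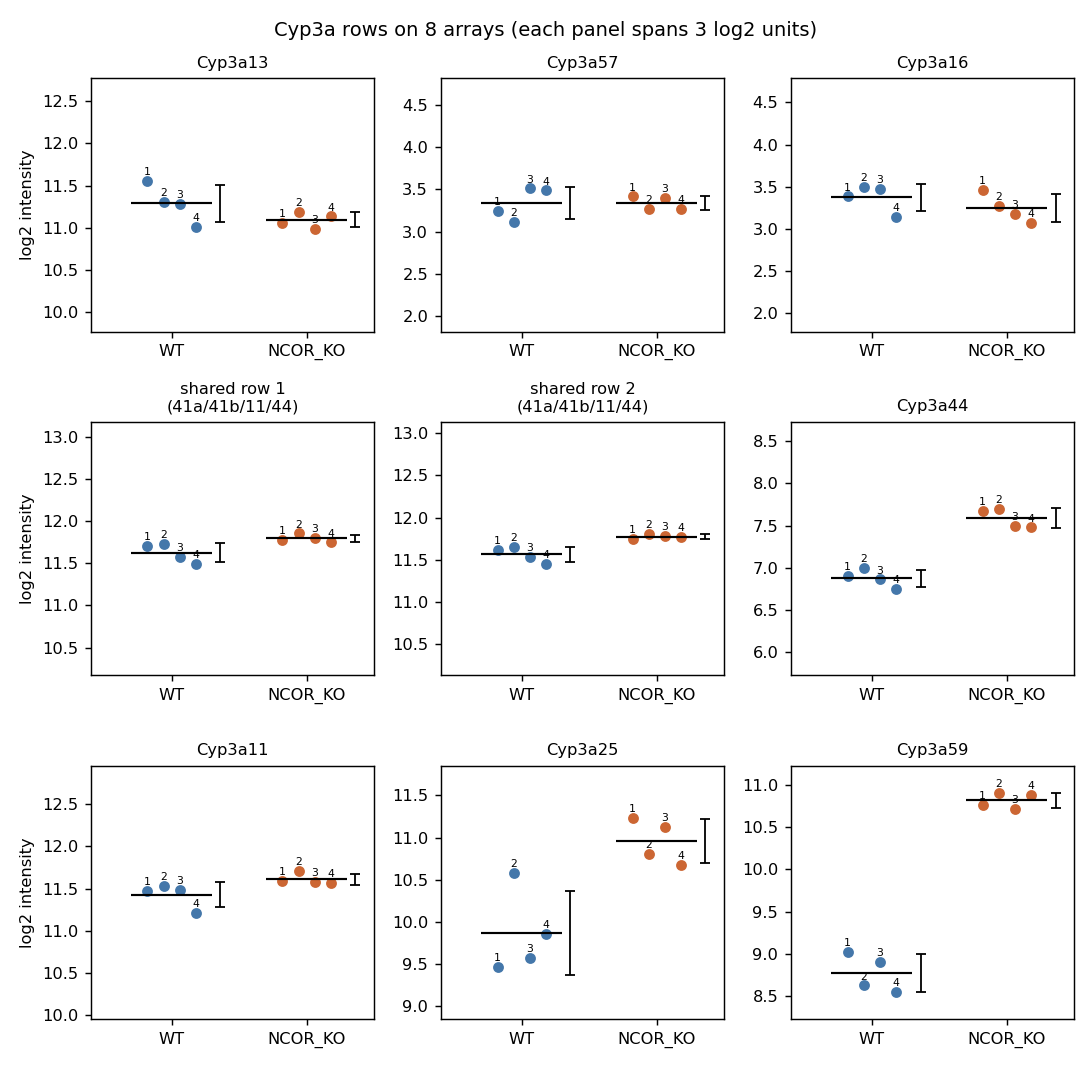
Log2 intensity (y axis, each panel spanning 3 units around its own middle) of the 9 rows that carry a Cyp3a symbol in the 4 WT (blue) and 4 NCOR_KO (orange) livers; numbers are replicates, lines are means and bars are ± 1 SD. Cyp3a59 is parted by 1.70 and Cyp3a44 by 0.48, while in Cyp3a25 WT replicate 2 comes within 0.10 of the knockout livers.

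Whether the genes changed by different amounts was tested within arrays, as the log2 value of one gene minus that of another, by a two-sided exact permutation test over 70 assignments of 4 against 4. The smallest p it allows is 0.0286. All 15 pairs of the 6 genes were compared with Benjamini-Hochberg adjustment, and 12 pairs differed at an adjusted p of 0.0357. In 4 of those 12 one gene was Cyp3a16, whose row is so dim that a small estimate there says little, and nothing is read from them. Over the 10 pairs without Cyp3a16, a choice made after seeing the data, 8 differed, also at an adjusted p of 0.0357. The change of Cyp3a11 minus that of Cyp3a59 was -1.86 (95% normal-theory interval -2.11 to -1.60). Cyp3a44 minus Cyp3a59 was -1.33 (-1.65 to -1.01), and Cyp3a13 minus Cyp3a59 was -2.24 (-2.40 to -2.08), so Cyp3a59 changed most in all 3 of these pairs. Cyp3a11 minus Cyp3a44 was -0.53 (-0.66 to -0.39), although both are named on the shared rows. Cyp3a11 changed by 0.38 more than Cyp3a13 (0.18 to 0.58).

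In 2 of those 10 pairs, and in Cyp3a13 against the dim Cyp3a16, the difference did not pass. Cyp3a25 minus Cyp3a59 was -0.95 (exact permutation p = 0.0571, adjusted p = 0.0659; normal-theory interval -1.88 to -0.02). Cyp3a25 minus Cyp3a44 was 0.38 (exact permutation p = 0.171, adjusted p = 0.184; -0.26 to 1.02). These adjusted p-values are over all 15 pairs. Without any one NCOR_KO replicate 9 of the 15 pairs passed.

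In RefSeq order the cluster on chromosome 5 runs Cyp3a57, Cyp3a16, Cyp3a41b, Cyp3a41a, Cyp3a44, Cyp3a11, Cyp3a25 and Cyp3a59. The 2 genes with the largest estimates are thus neighbours at one end, and the next gene inward, Cyp3a11, had a smaller estimate than Cyp3a44 beyond it. The nearest measured genes outside the family did not pass. Zscan25, on the Cyp3a57 side, was at 7.07 in WT and 7.12 in knockout liver (log2 change 0.04 ± 0.09 SE, limma adjusted p = 0.856). Gm5565, beyond Cyp3a59, was dim, at 3.56 and 3.55 (-0.02 ± 0.09 SE, limma adjusted p = 0.945). Beside Cyp3a13, Pilrb2 was at -0.09 ± 0.18 and Gjc3 at 0.15 ± 0.15 (SE, limma adjusted p = 0.850 and 0.663).

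**Figure D3:**
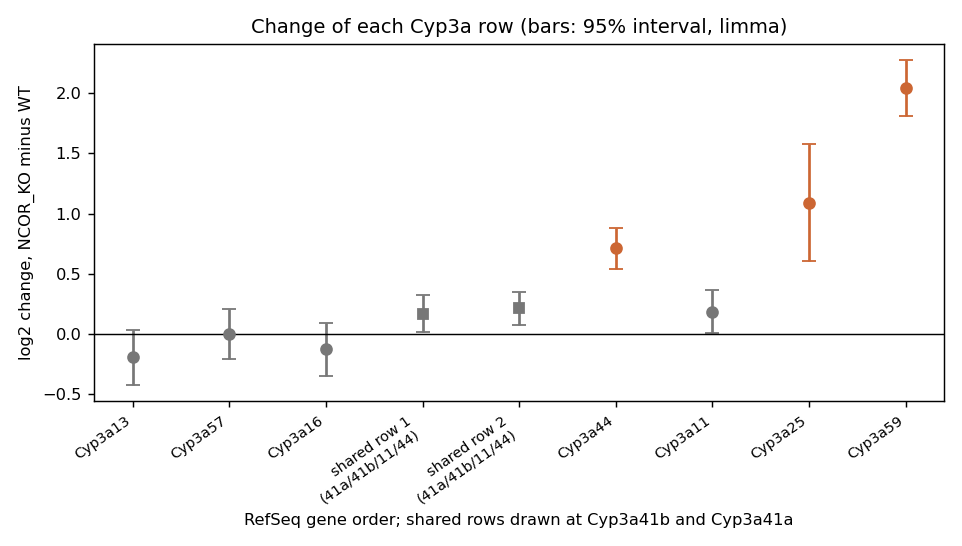
Log2 change, NCOR_KO minus WT (y axis), of the 9 rows in RefSeq gene order (x axis), with 95% intervals from limma; orange passed the threshold, grey did not, and squares are the 2 rows shared by 4 genes, drawn at Cyp3a41b and Cyp3a41a. Cyp3a25 (1.09) and Cyp3a59 (2.04) stand at one end of the cluster and Cyp3a44 (0.71) lies before Cyp3a11 (0.18).

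**Figure D4:**
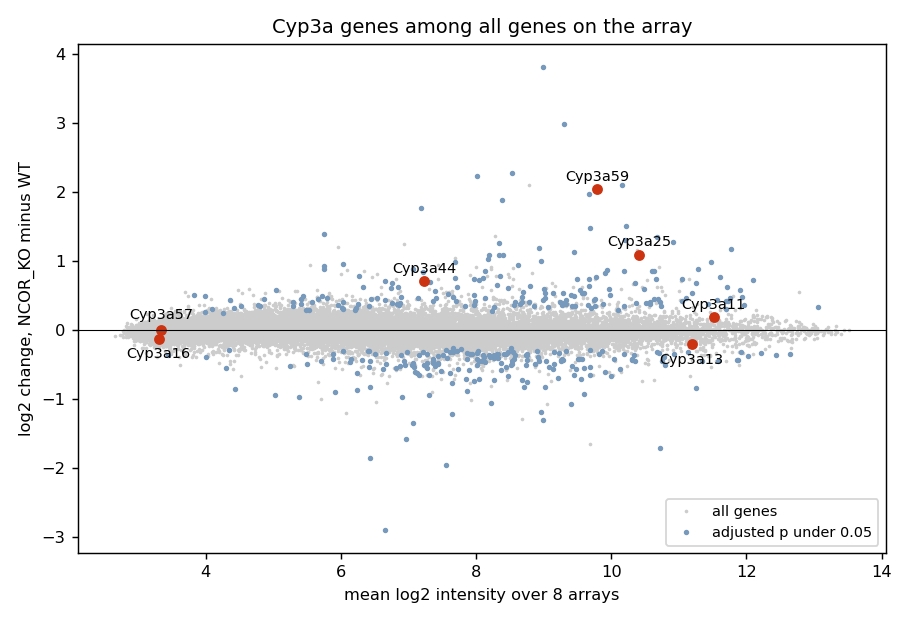
Log2 change, NCOR_KO minus WT (y axis), against mean log2 intensity over 8 arrays (x axis) for 22180 genes (grey), those past the threshold (blue) and 7 Cyp3a genes (red). Cyp3a59 has the 7th largest change, Cyp3a25 the 25th and Cyp3a44 the 86th, while Cyp3a16 and Cyp3a57 lie at the dim end near 3.3.

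None of the transcripts of 3 nuclear receptors known to act on Cyp3a genes passed the test. Receptor activity was not measured. PXR (Nr1i2) was at 10.96 ± 0.13 in WT and 11.07 ± 0.06 in knockout liver (SD, n = 4), with overlapping groups (log2 change 0.12, limma adjusted p = 0.471). The constitutive androstane receptor CAR (Nr1i3) was at 11.06 ± 0.15 and 10.77 ± 0.11 (SD, n = 4; log2 change -0.29, limma adjusted p = 0.133). Their partner Rxra was at 10.97 ± 0.05 and 10.80 ± 0.07 (SD, n = 4; -0.18, limma adjusted p = 0.183). Of 23 measured receptors and cofactors 7, CAR and Rxra among them, had an unadjusted p under 0.05, against 15.9% of all genes. Estimates above 0 were found in 7 of the 23, against 52% of all genes. In 3, Rxra among them, all knockout values lay below all control values, against 5.49% of all genes. In limma's adjusted test 0 rose, 1 fell and 22 did not pass, where 0.834% of all genes fell. The member that fell was Cebpa, a hepatocyte transcription factor, by 0.35 (limma adjusted p = 0.0158), and its call was lost without WT replicate 1 or 4 or NCOR_KO replicate 2 or 3, when the count was 0.

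Genes for electron transfer to P450s and for haem, the P450 cofactor, had 0 of 15 members past the threshold in limma's test and 6 at an unadjusted p under 0.05, with a median log2 change of 0.11. Of all genes 1.65% passed and 15.9% had an unadjusted p under 0.05. Cyb5a, the cytochrome b5 that can pass electrons to CYP3A enzymes, was at 12.34 ± 0.05 in WT and 12.26 ± 0.04 in knockout liver (SD, n = 4; limma adjusted p = 0.487). Alas1, which catalyses the first step of haem synthesis, was at 11.99 ± 0.08 and 12.10 ± 0.17 (SD, n = 4; limma adjusted p = 0.564). The reductase gene Por was not analysed here.

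Of 40 measured targets of PXR and CAR outside the Cyp3a genes 12 rose, 1 fell and 27 did not pass. The share that rose was 30.0%, against 0.816% of all genes, and the median change was 0.24. Several of the 12 are members of the same gene families, such as Gstm2, Gstm3 and Gstm4, so their calls are not independent. The list was chosen with earlier results of these data known, and the shares are no test of PXR or CAR. Gadd45b, a stress-inducible growth arrest gene, rose by 2.23 ± 0.31 (SE, limma adjusted p = 0.00790). The P450 gene Cyp2c55 rose by 1.48 ± 0.14 (SE, limma adjusted p = 0.00102) and Cyp2c38 by 1.28 ± 0.20 (SE, limma adjusted p = 0.0146). Cd36, a fatty acid translocase, rose by 1.30 ± 0.19 (SE, limma adjusted p = 0.00903). Cyp1a2, better known as a target of the aryl hydrocarbon receptor, fell by 0.33 (limma adjusted p = 0.0429). Cyp2b10, the classic CAR target, was at 10.72 ± 0.39 and 11.28 ± 0.20 (SD, n = 4) and did not pass (log2 change 0.56, limma adjusted p = 0.148). The number past the threshold, 13, became 7, 8, 8, 7 and 8 without WT replicate 1, WT replicate 4 and NCOR_KO replicates 1, 2 and 4, and 6 without WT replicate 2 and NCOR_KO replicate 1 together.

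Cyp3a16, Cyp3a41a and Cyp3a44 are known from female liver, so genes with a sex-dependent level in mouse liver were set beside them. Of 29 measured female-predominant genes outside the family 4 rose, 0 fell and 25 did not pass, with a median change of 0.22 and 24 of 29 above 0. Those 4 were the steroid hydroxylase gene Cyp17a1 (1.97), the pantetheinase gene Vnn1 (1.34), the glutathione transferase gene Gstt3 (0.76) and Cyp2a4 (0.74). Of 32 male-predominant genes 1 rose, 5 fell and 26 did not pass, with a median of -0.34 and 6 of 32 above 0, where 52% of all genes were. Obp2a, a lipocalin gene, fell by 1.86, Selenbp2, a selenium binding protein gene, fell by 1.72, Susd4 fell by 1.05 and the oxysterol hydroxylase gene Cyp7b1 fell by 0.84 (limma adjusted p = 0.0394, 5.92e-04, 0.00782 and 0.0449). Elovl3, a fatty acid elongase gene, rose by 0.72 (limma adjusted p = 0.0359). Of all genes 0.816% rose and 0.834% fell.

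Single arrays weighed on those counts. The 4 female-predominant genes became 2 without WT replicate 1, WT replicate 4 or NCOR_KO replicate 1, 2 or 4. The 6 male-predominant genes became 2 without WT replicate 1 or 4 and 3 without NCOR_KO replicate 1, 2, 3 or 4. The lists share members: 8 of the 29 female-predominant genes also stand in the PXR and CAR list, among them Cyp2a4 and Gstt3.

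**Figure D5:**
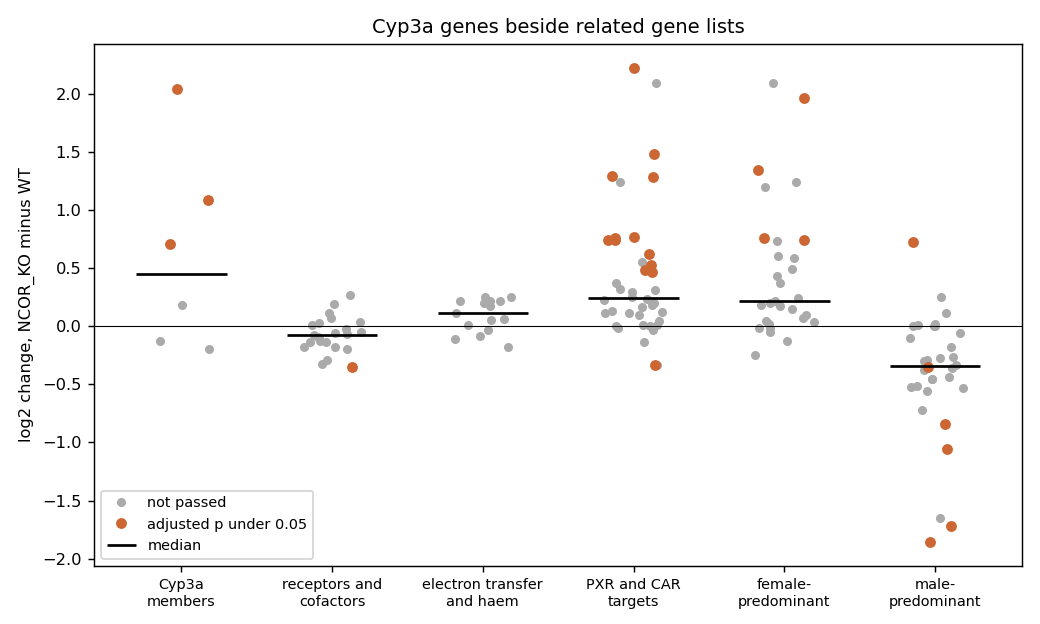
Log2 change, NCOR_KO minus WT (y axis), of 6 Cyp3a genes with their own row (Cyp3a57 is left out) and of 5 related lists (x axis). Each point is a gene, orange passed the threshold and black lines are medians. The medians are 0.45 for the Cyp3a genes, 0.24 for PXR and CAR targets, 0.22 for female-predominant and -0.34 for male-predominant genes.

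Markers of liver cell types were read from the same fit, in which 0.816% of all genes rose, 15.9% had an unadjusted p under 0.05 and 52% had an estimate above 0. Of 13 hepatocyte markers 0 passed limma's test and 1 had an unadjusted p under 0.05 (median 0.01), and their summed intensity was 94296 to 97771 in WT and 94498 to 96829 in knockout livers. Endothelial markers had 11 of 12 estimates above 0, 7 with an unadjusted p under 0.05 and 1 gene that rose. Their sums were 6812 to 8086 in WT and 7931 to 9142 in knockout livers. Cholangiocyte markers had 6 of 6 above 0, 4 with an unadjusted p under 0.05 and 1 that rose. Their sums, 401 to 411 and 462 to 531, did not overlap. Of single genes, 4.9% had all knockout values above all control values. Lymphocyte markers had 7 of 9 above 0, 3 with an unadjusted p under 0.05 and 2 that rose, with sums of 452 to 506 and 476 to 571. Of 12 Kupffer cell and 9 stellate cell markers 0 passed, and 0 of either had an unadjusted p under 0.05. Of 8 markers of intestinal epithelium, another site of Cyp3a13 and Cyp3a25, 0 passed, 3 had an unadjusted p under 0.05 and 3 were above 0. No marker has an intensity of 0 on this scale. The part of other cell types in the Cyp3a changes was not tested.

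The genes whose pattern over the 8 arrays came closest to each risen Cyp3a gene were found by the root mean square difference between gene-centred log2 values. For Cyp3a59 they were Fabp5, a fatty acid binding protein gene (0.17), Acnat2, an acyl transferase gene (0.20), and the clock gene Arntl (0.26). For Cyp3a44 they were Dtx4 (0.05), Hjv, a hemojuvelin gene (0.08), and Cpeb4 (0.08). For Cyp3a25 they were Insig2, a brake on sterol synthesis (0.24), Acaa1b, a peroxisomal thiolase gene (0.27), and Cyp4a31, a fatty acid hydroxylase gene (0.28). In Insig2, Acaa1b and Cyp4a31, as in Cyp3a25, WT replicate 2 was the brightest control, at 10.69, 10.57 and 11.15. Since these genes were picked for likeness to Cyp3a25 over the same arrays, that shared trait is not an independent result. The measure covers both the group difference and the spread within groups.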

How the data were processed

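The authors deposited linear intensity values per probe set, made with tools that include RMA and Partek, per the submitters' processing notes, which give no versions; no source used here gives the filters or the build. Log2 was taken of all 41345 rows, with no further normalization. Platform annotation gave 23521 rows a single gene and 1814 several; the row with the highest mean over 8 arrays stood for a gene, leaving 22180 genes. Groups and replicate numbers came from the sample titles. The group comparison used lmFit and eBayes of limma 3.58.1 (R 4.3.3), with Benjamini-Hochberg adjustment over all genes and a threshold of 0.05. Rows with several genes were tested over 25335 annotated rows. Windows were aligned globally in Biopython 1.88.

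The Cyp3a members, gene lists and tests were chosen with earlier results of these data known. Named by rule were all members, 3 receptors, Cyb5a and Alas1, up to 4 called genes per list with the largest change, nearest neighbours and the 3 most similar genes; Cyp1a2, Cyp2b10, Elovl3, Alb, Uty and Xist were added after values were seen. The fit was tested on simulated data with 50 changes planted at each of 4 sizes. It called 24% of 1.2-fold, 72% of 1.5-fold and 100% of 2-fold and 4-fold changes. It also called 7 genes without a planted change. Changes near 1.2-fold were thus mostly missed in the simulation.

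Alternatives were quantile normalization, median centring, array weights, trended robust variance, only brighter rows, the mean of rows, a replicate block, a threshold of 0.1 and leaving out each array. Some listed genes were not analysed here.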

Additional observations from a re-analysis of the deposited data

Results flagged for a closer look

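Among the knockout livers, NCOR_KO replicate 2 stood apart for Cyp3a11, at 11.70 where the other three lay between 11.57 and 11.59; the gap was 0.845 of the group's range, above Dixon's 95% critical value for 4 samples. This was 1 of 18 groups examined, and chance marks about 1 in 20. Without that array the log2 change of Cyp3a11 was 0.15 (limma adjusted p = 0.503).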

How the results depend on the processing

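Cyp3a59 and Cyp3a44 passed in all 16 alternatives, Cyp3a11 and Cyp3a13 in 0 of 16, and Cyp3a16 in 0 of the 15 that gave it a value. Among these alternatives, a threshold of 0.1 cannot lose a call made at 0.05. The mean of rows leaves the estimate of a gene with 1 row unchanged, so neither tests the calls of Cyp3a59, Cyp3a44 and Cyp3a25. Cyp3a25, at 1.09, missed the threshold with trended robust variance (adjusted p = 0.0627) and with the replicate block (adjusted p = 0.0998), both at 1.09, and lay between 0.96 and 1.33 without single arrays. The count of Cyp3a genes past the threshold was 2 or 3 throughout. Cyp3a57 turned sign to 0.0192 with quantile normalization and ran from -0.0773 to 0.0533 without single arrays. Same-numbered arrays correlated at -0.09 to 0.02 in their deviations from group means, so the replicate numbers were not taken as pairs. With the replicate block the 366 genes past the threshold became 155, the 13 PXR and CAR targets 8, and the 1 receptor or cofactor gene 0. All genes past the threshold numbered 551 with only brighter rows and 807 at a threshold of 0.1, 202 without WT replicate 2 and NCOR_KO replicate 1 together, and 120 to 297 without single arrays. With arrays centred on their median 145 rose and 295 fell, against 181 and 185. A threshold of 0.1 brought male-predominant genes to 10, and trended robust variance brought the electron transfer and haem list from 0 to 1. Without single arrays the counts ran from 7 to 11 for PXR and CAR targets, 2 to 5 for female-predominant and 2 to 5 for male-predominant genes, 0 to 1 for receptors and cofactors, and 9 to 12 for pairs of Cyp3a genes that differed. Leaving out pairs with the dim Cyp3a16 row left 8 of 10. Without WT replicate 2 and NCOR_KO replicate 1 together there were 6 PXR and CAR targets and 2 female-predominant genes. Apart from fewer arrays and the stated thresholds, the cause was not tested. The dim rows of Cyp3a16 and Cyp3a57 limit what can be detected there.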

Other observations

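Other P450 families gave these counts in the same fit. Of 14 Cyp2c genes 2 rose (Cyp2c55 and Cyp2c38) and 0 fell, and of 9 Cyp2a and Cyp2b genes 2 rose (Cyp2a4 and Cyp2a5) and 0 fell. Of all 94 genes with a Cyp symbol 9 rose and 4 fell, with a median log2 change of 0.06. Over all genes 0.816% rose, 0.834% fell and the median was 0.01. The Cyp3a genes made up 3 of those 9. Whether the families differ was not tested.

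Within the controls, WT replicate 4 was the lowest array for 7 of the 9 rows that carry a Cyp3a symbol, and WT replicate 2 the highest for 6. Among knockout livers, NCOR_KO replicate 2 was the highest for 6 and NCOR_KO replicate 4 the lowest for 5. Rows that share sequence are not independent, so these counts are a description of the arrays.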
